A study of Mus musculus and Oryctolagus cuniculus and Sus scrofa with 20 samples.

Results

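miR-871 and miR-470 are a pair of neighbouring microRNAs on the mouse X chromosome, each cut from its own hairpin and each read here as a 5p and a 3p arm. Tags of 18 to 26 nt were assigned to one of the 4 mature forms when their first 18 nt equalled those of the reference miRNA, which gave 4 members among 1660 mature mouse miRNA entries, of which 863 had reads in at least 1 mouse library. The values describe levels, arm use and read ends in 10 mouse small RNA libraries of a series that follows an X-linked miRNA family in mammalian male germ cells.

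A germ cell series of 7 libraries was labelled as wild-type C57BL/6 males: cultured spermatogonial stem cells (SSC), pre-leptotene and leptotene spermatocytes from postnatal day 9, zygotene spermatocytes from day 13, pachytene spermatocytes and round spermatids (labelled round sperms) from day 25, and mature sperm. A second set of 3 SSC cultures was of C57BL/6 x DBA2 F1 background, from a day 15 male carrying an actin-EGFP transgene: a wild-type control, a miR-741 knockout made with TALEN nucleases and a miR-741 knockout made with CRISPR. The growth protocol gives this F1 male as the source of SSC with no exception, so the stage series' SSC may share that origin despite their C57BL/6 label. SSC were grown on mouse embryonic fibroblast feeder cells, and each knockout line was 1 picked colony. All groups were untreated and male, and each is 1 library, so no difference below has a replicate check, and all intervals are 95% intervals of counting error only, from reads without molecular identifiers. Wild-type testis libraries of rabbit (postnatal days 10 to 180), adult pig and adult rat, 1 per age or species, served only for counts of the members' tags.

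A miRNA hairpin is cleaved in the nucleus and again in the cytoplasm, and 1 strand of the resulting duplex is kept in an Argonaute protein. Bases 2 to 8 of that strand, the seed, choose most targets by pairing with messenger RNA. The ends of the strand can be trimmed, or extended with A or U by terminal nucleotidyltransferases. miR-871 and miR-470 belong to the X-linked miR-506 family, which is known for its expression in testis. The X chromosome as a whole is transcriptionally silenced in pachytene spermatocytes.

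The mature members are shown first because every count below is of reads that begin like them. The sequences are those of RefSeq on GRCm38.p6, 5′ to 3′, with the seed in capitals.
miR-871-3p: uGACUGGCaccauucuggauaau
miR-871-5p: uAUUCAGAuuagugccagucaug
miR-470-5p: uUCUUGGAcuggcacuggugagu
miR-470-3p: aACCAGUAccuuucugagaaga
The seeds of miR-871-3p, miR-470-5p and miR-470-3p were shared with no other mature miRNA in the reference table, and that of miR-871-5p was shared with 1, miR-743a-5p. miR-871-3p and miR-470-5p hold the same run of 9 bases, GACUGGCAC, at bases 2 to 10 of the first and bases 7 to 15 of the second. The run thus starts in the seed of miR-871-3p and only reaches the last 2 seed bases of miR-470-5p. miR-871-5p holds 10 bases that are the reverse complement of bases 8 to 17 of miR-470-5p.

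The hairpins show how the arms pair, and their mature arms are in capitals. Mir871 lies at chrX:66810428-66810504 and Mir470 at chrX:66813951-66814025, both on the minus strand, 3446 bases apart.
Mir871: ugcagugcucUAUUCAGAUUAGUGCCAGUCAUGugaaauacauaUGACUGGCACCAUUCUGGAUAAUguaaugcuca
Mir470: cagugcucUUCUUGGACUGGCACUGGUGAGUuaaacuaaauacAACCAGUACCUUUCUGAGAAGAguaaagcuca
They are the 12th and 13th of 19 family hairpins in a row, overlap no other annotated gene, and lie 13552 and 17075 bases from Mir741, the hairpin targeted in the knockout lines. RNAfold gave Mir871 a minimum free energy of -39.9 kcal per mol and Mir470 one of -29 kcal per mol. In the folded Mir871, 20 bases of the 5p arm and 18 of the 3p arm were paired; in Mir470 each arm had 18 paired bases.

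The stage libraries held 12247017 to 25908109 reads, of which 1.38% (pachytene) to 46.2% (pre-leptotene) were miRNA reads, and the 3 SSC lines held 597732 to 1449449 reads. The reference table lacks some abundant mouse miRNAs. Reads assigned to it came to 73.3% of the count of reads exactly within any annotated hairpin in pachytene and 76.4% in round spermatids. In SSC and the earlier spermatocytes they came to 93.9% or more. Reads whose 3′ end does not match the hairpin enter the first count only, so these percents compare 2 counts and are not a covered part. The meiotic and later germ cell list (miR-34b, miR-34c and the miR-449 family; 4 of its 5 names were counted, miR-34c by its 3p arm alone) took 1.42% to 2.55% of miRNA reads in pachytene spermatocytes, round spermatids and mature sperm and at most 0.0406% elsewhere. The stem cell list (the miR-290 and miR-302 clusters) took 0.351% to 0.536% in the 4 SSC libraries and at most 0.0636% elsewhere. Libraries also stood apart by error pattern. Reads with 1 mismatch to miR-871-3p were 0.900% to 1.08% of those with 0 or 1 in the 4 SSC libraries and 2.98% to 3.36% in the other 6, so the step from SSC to pre-leptotene also crosses this split, whose part in that step was not tested.

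miR-871-3p was among the most abundant miRNAs from the SSC stage to the round spermatid, and was far lower in mature sperm. It took 9.32% of miRNA reads in SSC, 20.2% in pre-leptotene, 19.1% in leptotene, 15.3% in zygotene, 13.3% in pachytene, 8.38% in round spermatids, then 0.437% in mature sperm. Among the entries of the reference table, which lacks some abundant miRNAs, its rank was 2 in each stage library up to pachytene. It was 3 in round spermatids, then 29 in mature sperm. Per reads within any annotated GENCODE hairpin, its share was 9.73% in pachytene and 6.40% in round spermatids. The order of levels was thus pre-leptotene, leptotene, zygotene, pachytene, SSC, round spermatid, mature sperm, and no neighbours in that order had overlapping counting intervals, the closest being SSC (9.30% to 9.35%) and round spermatids (8.30% to 8.46%).

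miR-470-5p, the abundant arm of the other hairpin, was lower up to round spermatids, changed less from SSC to pre-leptotene and fell more than miR-871-3p from zygotene to pachytene and on to round spermatids. It took 4.42% of miRNA reads in SSC, 5.59% in pre-leptotene, 5.62% in leptotene, 4.87% in zygotene, 2.59% in pachytene, 1.24% in round spermatids, then 1.03% in mature sperm. The pre-leptotene and leptotene intervals overlapped, at 5.57% to 5.61% and 5.60% to 5.64%. Mature sperm was the 1 stage library in which miR-470-5p outranked miR-871-3p, at rank 14.

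The minor arms had smaller and flatter shares. miR-871-5p took 0.370% of miRNA reads in SSC, 0.203% in pre-leptotene, 0.174% in leptotene, 0.283% in zygotene, 0.340% in pachytene, 0.172% in round spermatids, then 0.170% in mature sperm. miR-470-3p took 0.0494% in SSC, 0.0343% in pre-leptotene, 0.0389% in leptotene, 0.0587% in zygotene, 0.0675% in pachytene, 0.0490% in round spermatids, then 0.0211% in mature sperm. miR-871-5p was thus highest in SSC. miR-470-3p was highest in zygotene and pachytene, whose intervals overlapped (0.0565% to 0.0610% and 0.0587% to 0.0772%), and per GENCODE hairpin reads it stood at 0.0562% in zygotene and 0.0495% in pachytene. The 4 members together took 14.2% of miRNA reads in SSC, 26.02% in pre-leptotene, 24.9% in leptotene, 20.5% in zygotene, 16.3% in pachytene, 9.84% in round spermatids, then 1.66% in mature sperm.

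**Figure D1:**
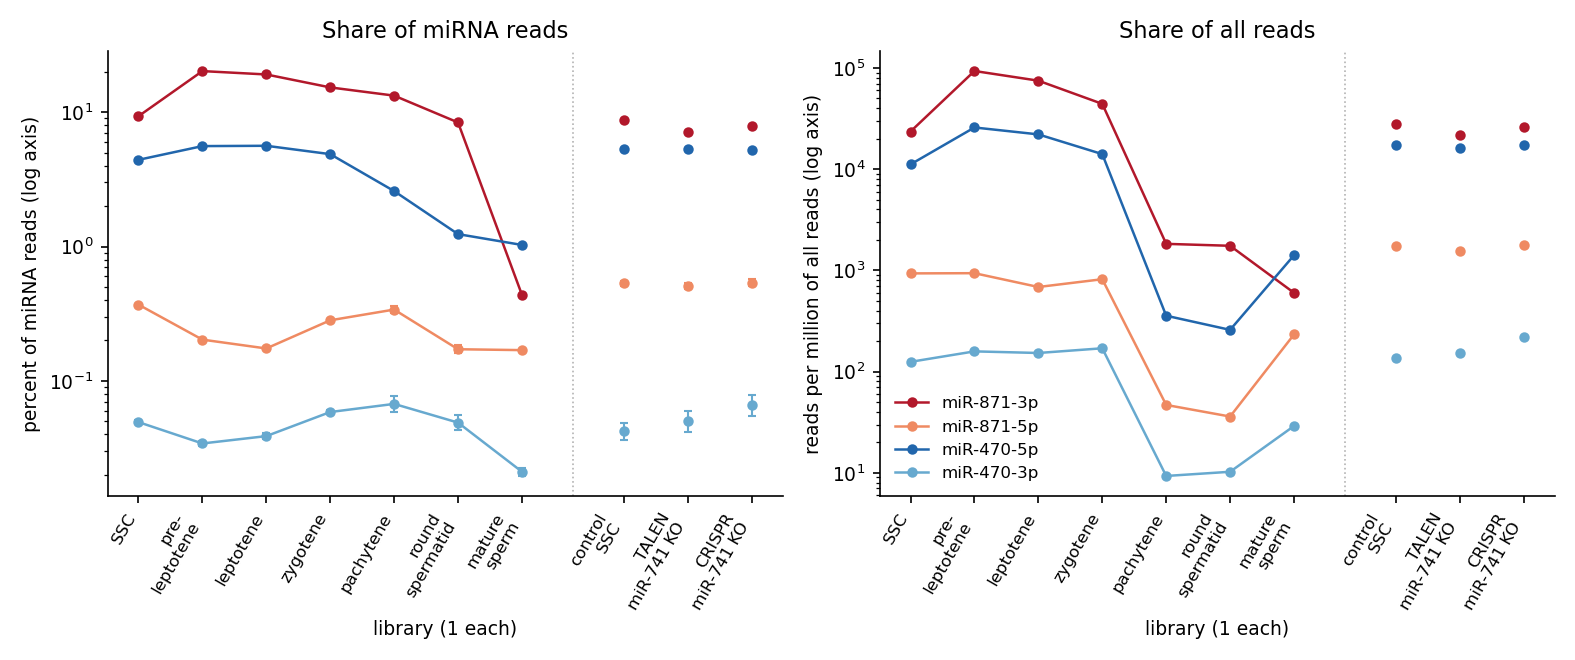
Levels of the 4 members in each mouse library, as percent of miRNA reads (left) and reads per 1000000 of all reads (right), both on log axes. Points are single libraries, bars on the left are 95% exact binomial intervals of the shares, lines join the germ cell stages and the 3 SSC lines stand to the right of the dotted line. miR-871-3p goes from 8.38% in round spermatids to 0.437% in mature sperm, while miR-470-5p is at 1.24% and 1.03%.

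Scaled to all reads, the same counts gave another shape, since the miRNA share of reads itself differed between libraries. miR-871-3p stood at 23559 reads per 1000000 in SSC, 93358 in pre-leptotene, 74885 in leptotene, 44198 in zygotene, 1829 in pachytene, 1750 in round spermatids, then 600.4 in mature sperm. miR-470-5p stood at 11159 in SSC, 25830 in pre-leptotene, 22069 in leptotene, 14089 in zygotene, 357 in pachytene, 258 in round spermatids, then 1410 in mature sperm. On this scale the lowest miR-470-5p libraries were pachytene and round spermatid rather than mature sperm. Fewer cells with the miRNA and less of it per cell cannot be told apart in such bulk libraries.

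Between consecutive stages, 1 of the 24 changes of the members was at least 4-fold per miRNA reads, that of miR-871-3p from round spermatids to mature sperm. Between SSC and pre-leptotene, miR-871-3p was higher by 1.12 on the log2 scale (1.11 to 1.12), miR-470-5p higher by 0.34, miR-871-5p lower with -0.86 and miR-470-3p lower with -0.53. At that step 57.7% of the 333 miRNAs tested were at least 4-fold different, of which 12 were higher and 180 lower, with a median change of -2.30 over those tested. Both abundant arms therefore moved against the median, and relative to the median all 4 members were higher. With TMM factors the changes of miR-871-3p and miR-470-5p were 2.89 and 2.11, both past 4-fold. The stem cell list fell from 0.536% to 0.0121% of miRNA reads across the same step and the feeder or stromal list from 7.498% to 0.918%; their part in the members' change was not tested.

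From pre-leptotene to leptotene the members differed by between -0.22 and 0.18 on the log2 scale, and 0.472% of miRNAs, 1 of 212, passed 4-fold. From leptotene to zygotene miR-871-3p went by -0.32 and miR-470-5p by -0.21, while the minor arms were higher, miR-871-5p by 0.70 and miR-470-3p by 0.60. At this step 11.3% of 239 miRNAs passed 4-fold, all 27 of them higher, and the median was 0.71. The abundant arms were thus lower relative to the median and the minor arms near it. The Sertoli cell marker miR-202 went from 0.0153% to 0.339% of miRNA reads over the same step, and its part in these values was not tested.

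From zygotene to pachytene miR-871-3p went by -0.20 and miR-470-5p by -0.91 per miRNA reads, against a median of -0.13, with 22.7% of 247 miRNAs past 4-fold. The Sertoli cell marker went from 0.339% to 0.0465% of miRNA reads and the meiotic and later germ cell list from 0.00632% to 1.78% across this step, and their part in these values was not tested. Per all reads the changes were -4.60 and -5.30, both past 4-fold, against a median of -4.52. Over this step the share of miRNA reads went from 28.9% to 1.38% of all reads, so the fall per all reads was close to that of miRNAs at large, and miR-470-5p lay further below it than miR-871-3p. From pachytene to round spermatids all 4 members were lower, miR-871-3p by -0.66, miR-871-5p by -0.98, miR-470-5p by -1.06 and miR-470-3p by -0.46, against a median of -0.37 and 18.6% of 129 miRNAs past 4-fold.

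From round spermatids to mature sperm the 2 abundant arms parted. miR-871-3p changed by -4.26 (-4.29 to -4.23), which is 0.0522 of its former share, and miR-470-5p by -0.27 (-0.31 to -0.23). miR-871-5p changed by -0.02 (-0.13 to 0.08) and miR-470-3p by -1.21. At this step 42.6% of 204 miRNAs were at least 4-fold different, 46 higher and 41 lower, with a median of -0.19, so 41 of 204, miR-871-3p included, were lower by 4-fold or more. Per all reads miR-871-3p changed by -1.54, short of 4-fold, while miR-470-5p was higher by 2.45, miR-871-5p by 2.69 and miR-470-3p by 1.502, against a median of 2.53. miR-871-3p was the 1 member that was lower in mature sperm on both scales. The epithelial list went from 0.0323% to 1.67% of miRNA reads and the blood list from 0.000203% to 0.139% across this step, and their part in these values was not tested.

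The ratio of miR-871-3p to miR-470-5p reads needs no scaling between libraries, although ligation and sequence can bias it. It was 2.11 in SSC, 3.61 in pre-leptotene, 3.39 in leptotene, 3.14 in zygotene, 5.13 in pachytene, 6.77 in round spermatids, then 0.426 in mature sperm. The widest interval, in round spermatids, ran from 6.59 to 6.96. The ratio was therefore highest in round spermatids and fell below 1 in mature sperm alone among the 10 mouse libraries. In the SSC lines it was 1.63 in the control, 1.34 in the TALEN line and 1.51 in the CRISPR line.

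Arm use set the hairpins apart in mature sperm. The 3p arm gave 96.2% of miR-871 reads in SSC, 99.0% in pre-leptotene, 99.1% in leptotene, 98.2% in zygotene, 97.5% in pachytene, 98.0% in round spermatids, then 72.1% (71.5% to 72.7%) in mature sperm. In read counts, mature sperm held 15554 reads of miR-871-3p and 6028 of miR-871-5p, and round spermatids 41216 and 847. The 5p arm gave 98.9% of miR-470 reads in SSC, 99.4% in pre-leptotene, 99.3% in leptotene, 98.8% in zygotene, 97.5% in pachytene, 96.2% in round spermatids, then 98.0% in mature sperm. The abundant arm of miR-470 thus never fell under 96%, and was higher in mature sperm than in round spermatids.

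Of 67 hairpins with enough reads of both libraries, the median change in the share of the abundant arm from round spermatids to mature sperm was 0 points, and 6 lost 10 points or more. miR-871 lost 25.9 points, the 4th largest loss, and miR-470 gained 1.79. Relative to all reads, miR-871-5p went from 36.0 to 233 per 1000000 while miR-871-3p went from 1750 to 600.4, so the lower 3p share came with both fewer 3p and more 5p reads on that scale. Per miRNA reads the log2 change was -4.26 for miR-871-3p and -0.02 (-0.13 to 0.08) for miR-871-5p, so 5p reads were not higher there.

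**Figure D2:**
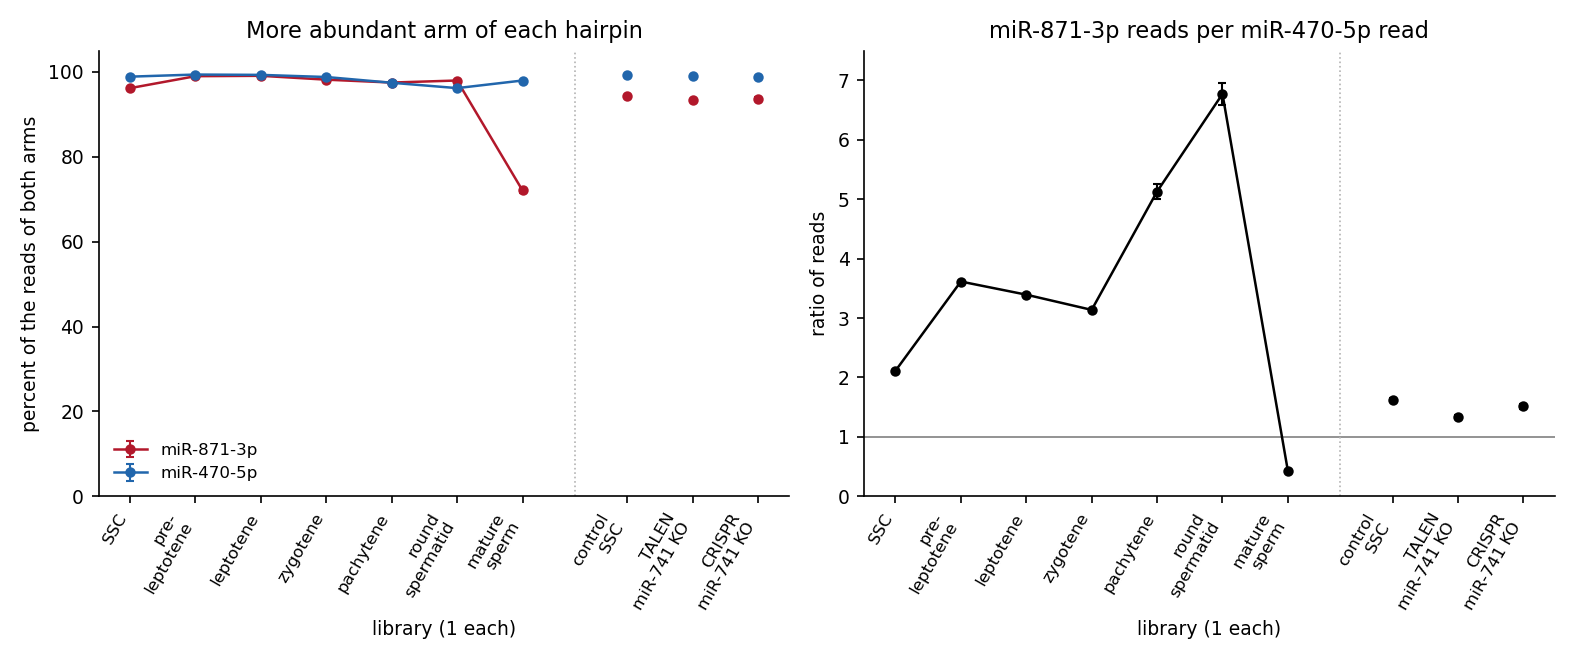
Percent of each hairpin's reads from its abundant arm (left; 3p for miR-871, 5p for miR-470) and miR-871-3p reads per miR-470-5p read (right), by library. Bars are 95% exact binomial intervals, mostly smaller than the points. Both abundant arms stay above 93% except miR-871-3p in mature sperm at 72.1%, where the ratio is 0.426.

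The 3′ end of miR-871-3p was mostly that of the reference up to round spermatids, with a shorter form whose share rose at each stage after pre-leptotene. Reads of 23 nt, the reference length, were 78.8% in SSC, 85.9% in pre-leptotene, 84.6% in leptotene, 82.2% in zygotene, 71.7% in pachytene, 64.9% in round spermatids, then 42.7% in mature sperm. Reads of 20 nt were 6.42% in SSC, 1.47% in pre-leptotene, 2.0% in leptotene, 3.54% in zygotene, 7.05% in pachytene, 12.1% in round spermatids, then 28.3% in mature sperm. The 23 nt share was thus highest in pre-leptotene and lower at each later stage, and the 20 nt share the reverse. The leading 20 nt tag lacks the last 3 bases of the miRNA, as the 2 most frequent tags of mature sperm show, written in DNA letters as deposited.
23 nt, 6416 reads: tgactggcaccattctggataat
20 nt, 4388 reads: tgactggcaccattctggat

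miR-470-5p was also mostly of the reference length of 23 nt, less often than miR-871-3p from pre-leptotene to zygotene and more often in the other 4 stages. The share was 88.4% in SSC, 79.0% in pre-leptotene, 79.5% in leptotene, 80.7% in zygotene, 77.8% in pachytene, 76.1% in round spermatids, then 59.6% in mature sperm. In mature sperm its shorter reads were mainly of 21 nt (16.6%) and 22 nt (15.8%), against 8.38% and 6.16% in round spermatids. Shorter reads in mature sperm were not particular to the members: over all miRNAs with 100 reads the median share of reads holding the full reference sequence was 81.7% in round spermatids, then 64.2% in mature sperm. miR-871-3p was below that median in mature sperm at 48.1%, and miR-470-5p at 58.1%.

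**Figure D3:**
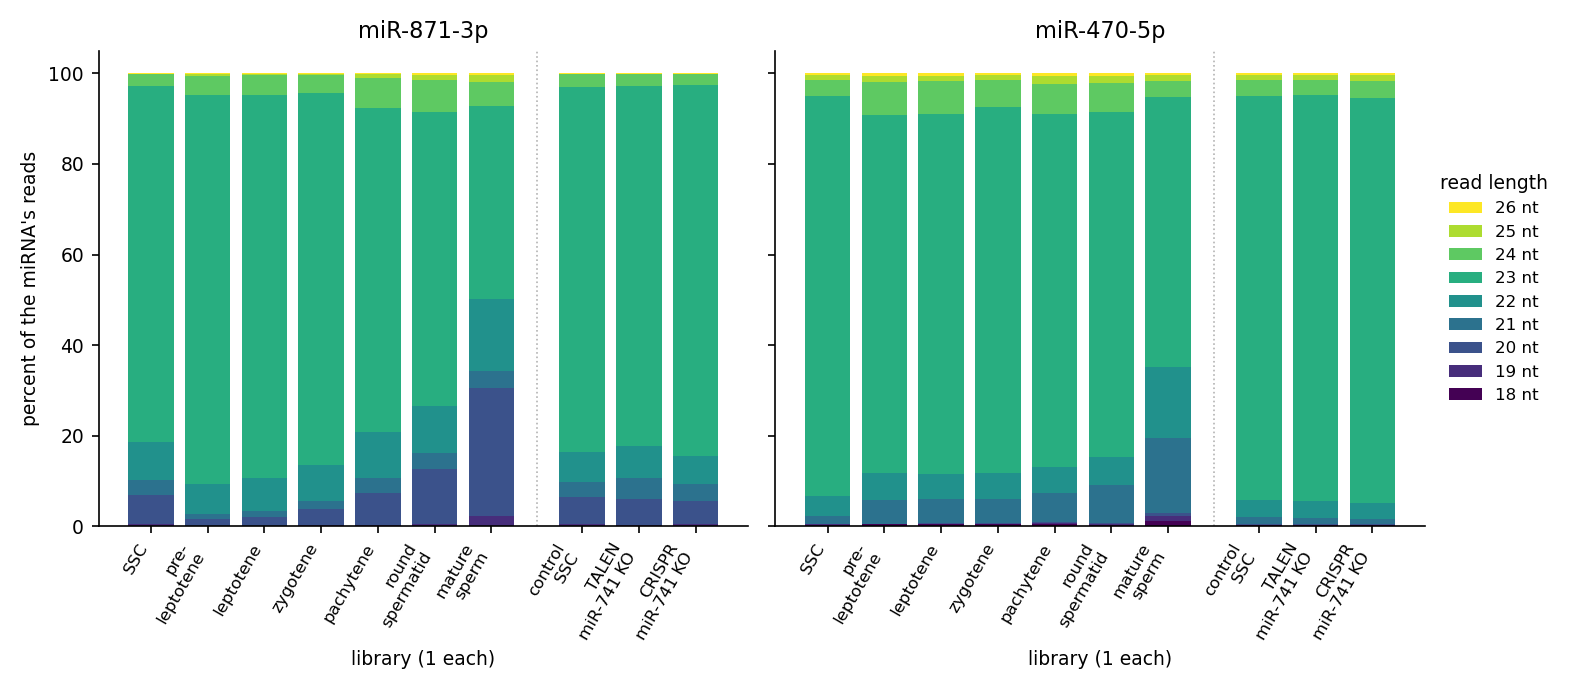
Read lengths of miR-871-3p (left) and miR-470-5p (right) in each mouse library, as stacked percent of the miRNA's reads from 18 nt (dark, bottom) to 26 nt (light, top). In mature sperm the 23 nt share is 42.7% for miR-871-3p, with 28.3% at 20 nt, and 59.6% for miR-470-5p.

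Bases after the longest match to the hairpin were counted as non-templated, so a sequencing error near the end is included. An added base equal to the next hairpin base counted as templated. That next base is U after miR-871-5p and miR-470-5p, so their U-tailed shares can miss added U. miR-470-3p, the rare arm, carried the most of the 4 members in each stage library, and less than miR-871-5p in the TALEN line (13.3% against 16.9%). Its reads ending in added A alone were 9.83% in SSC, 37.7% in pre-leptotene, 44.5% in leptotene, 47.0% in zygotene, 42.5% (35.7% to 49.4%) in pachytene, 62.7% (56.2% to 68.8%) in round spermatids, then 68.8% (65.4% to 72.1%) in mature sperm. The shares in the spermatocytes were above that of SSC, and those of round spermatids and mature sperm above all the rest. Of the A-tailed reads, 5.22% in SSC, 29.8% in round spermatids, then 46.0% in mature sperm had 2 or more added A. The tags that follow, with added bases in capitals, are the first and second most frequent of mature sperm and the untailed form that led in SSC.
279 reads in mature sperm, 1 added A: aaccagtacctttctgagaagaA
235 reads in mature sperm, 2 added A: aaccagtacctttctgagaagaAA
1633 reads in SSC, none added: aaccagtacctttctgagaaga

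Among miRNAs with 100 reads, miR-470-3p had the highest share of A-tailed reads in each library from leptotene to mature sperm, ranked 3 of 207 in pre-leptotene, and 32 of 320 in SSC. The median over those miRNAs lay between 0.769% and 1.84% in these 7 libraries. The counts behind its share are small in pachytene (212 reads) and round spermatids (241 reads). Its partner miR-470-5p had 2.19% A-tailed reads in SSC and 3.31% to 6.61% in the later stages.

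Added U was more frequent on miR-871-5p than on the other members in each stage library, with U-tailed reads of 10.9% in SSC, 29.3% in pre-leptotene, 24.5% in leptotene, 21.5% in zygotene, 19.9% in pachytene, 20.8% in round spermatids, then 30.5% in mature sperm. Such shares were not rare: among miRNAs with 100 reads it ranked 68 of 320 in SSC, 32 of 207 in pre-leptotene, 20 of 114 in round spermatids and 32 of 195 in mature sperm, where the medians were 3.13%, 4.78%, 5.06% and 5.64%. Its leading tag in SSC and mature sperm was 1 base longer than the reference and matched the hairpin. That extra base is a U, so a templated and an added base cannot be told apart, and it is called templated by rule. The leading U-tailed tag of miR-871-5p replaced the last reference base.
Templated, 2916 reads in mature sperm: tattcagattagtgccagtcatgt
U-tailed, 1747 reads in mature sperm: tattcagattagtgccagtcatT
miR-871-3p had 1.91% U-tailed reads in SSC, 3.87% to 4.16% in pre-leptotene to zygotene and 7.34% to 8.09% in the last 3 stages. U tails on the 3p arm of miR-871 were thus rarer than on its 5p arm in every library.

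**Figure D4:**
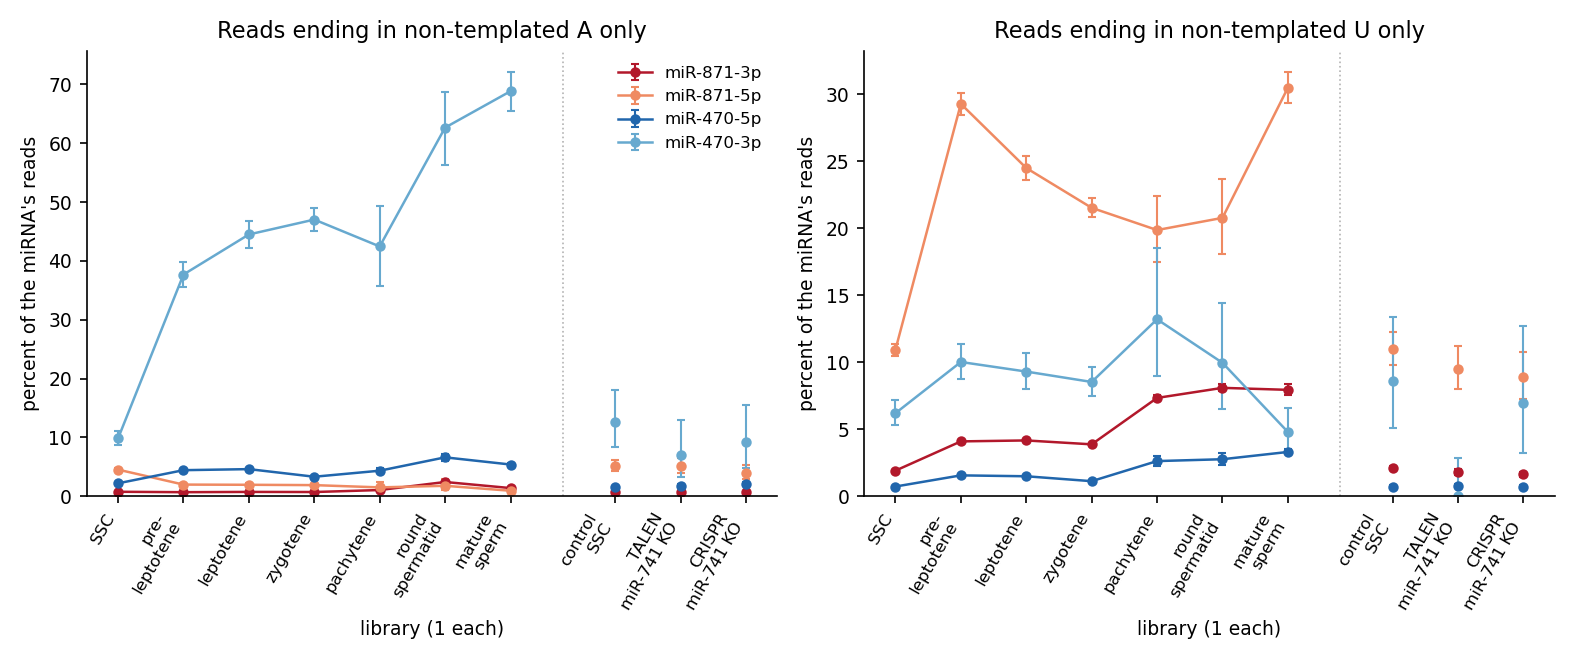
Percent of each member's reads that end in non-templated A only (left) or U only (right), by library, with 95% exact binomial intervals. miR-470-3p reaches 68.8% A-tailed reads in mature sperm from 9.83% in SSC, and miR-871-5p has 19.9% to 30.5% U-tailed reads from pre-leptotene on against 10.9% in SSC.

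The 5′ end sets the seed, and miR-871-3p had a second start 2 bases inside the reference one. The tag is shown because its bases 2 to 8, in capitals, differ from the seed of miR-871-3p and match the seed of no other mature miRNA in the table.
miR-871-3p, start plus 2: aCTGGCACcattctggataat
It lies at chrX:66810438-66810458 and matched 1 hairpin, Mir871. Of reads lying exactly within the hairpin, this start made up 3.87% in SSC, 1.01% in pre-leptotene, 1.15% in leptotene, 1.74% in zygotene, 1.15% in pachytene, 0.841% (0.749% to 0.941%) in round spermatids, then 15.0% (14.4% to 15.5%) in mature sperm. In mature sperm 2452 reads began there and 87.1% of them ended at the reference end. Relative to all reads, the shifted form went from 12.9 per 1000000 in round spermatids to 94.6 in mature sperm, whereas reads with the reference start went from 1520 to 536. Per 1000000 miRNA reads the shifted form stood at 618 in round spermatids and 690 in mature sperm. On that scale reads with the reference start went from 72775 to 3905.

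Starts other than the reference one made up 15.3% of miR-871-3p reads in mature sperm, rank 34 of 174 miRNAs, whose median was 0.482%. In round spermatids its 0.941% was the median of 103 miRNAs. miR-470-5p began at the reference base in 99.8% or more of reads in every mouse library, and miR-871-5p in 95.0% to 98.2%. A shifted start of more than 15% was thus seen for miR-871-3p in mature sperm and for no other member there.

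**Figure D5:**
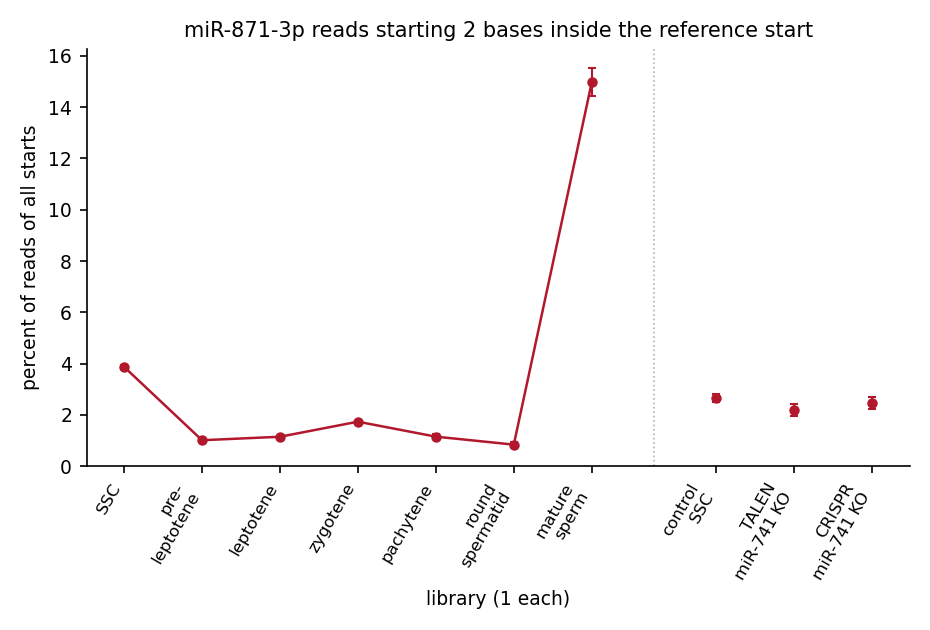
Percent of miR-871-3p reads, over starts within 3 bases of the reference, that begin 2 bases inside it, by library with 95% exact binomial intervals. Mature sperm stands at 15.0%, SSC at 3.87% and round spermatids at 0.841%.

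Single-base mismatches in the first 18 nt, with positions counted from the 5′ end of the miRNA, split the libraries rather than the miRNAs. G2T in miR-871-3p was 0.835% to 1.02% of reads in the 6 libraries from pre-leptotene to mature sperm and at most 0.00638% in the 4 SSC libraries. T2G in miR-470-5p was 0.895% to 1.24% in those 6 libraries and at most 0.00306% in the 4. Both fall on base 2, the first seed base, and on different base changes. In SSC G7T led instead, at 0.142% of miR-871-3p and 0.151% of miR-470-5p reads. In the TALEN line G17A was 0.467% of miR-470-5p reads (65 reads), against 0.0513% (13 reads) in the control and 0.0290% (3 reads) in the CRISPR line.

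The knockout lines ask whether removing miR-741 changes the neighbouring hairpins. miR-741-3p itself, the target, had 80096 reads in the control, 3 in the TALEN line and 5 in the CRISPR line, a share of 6.84e-05 (1.41e-05 to 0.000200) and 0.000149 (4.82e-05 to 0.000347) of the control's. miR-741-5p had 282 reads in the control and 0 in both lines.

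All 4 members were read in both lines at shares between 0.821 and 1.56 times the control's. miR-871-3p took 8.72% of miRNA reads in the control, 7.16% in the TALEN line and 7.88% in the CRISPR line, 0.821 and 0.904 of the control. miR-470-5p took 5.36%, 5.35% and 5.21%, and miR-871-5p 0.534%, 0.508% and 0.537%. miR-470-3p took 0.0423% (198 reads), 0.0499% (128 reads) and 0.0661% (130 reads), or 1.56 times the control in the CRISPR line (interval of the log2 change 0.31 to 0.97). None of the 4 was 2-fold different in both lines, where 18.7% of 150 miRNAs were.

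miR-741 took 17.1% of the control's miRNA reads, so its loss raises every other share. Without miR-741 in the denominator, miR-871-3p changed by -0.56 in the TALEN line and -0.42 in the CRISPR line on the log2 scale and miR-470-5p by -0.27 and -0.31, against medians of all miRNAs of -0.25 and -0.10. The family was compared per miRNA reads with miR-741 kept in the denominator, so its values do not stand on the scale just given. Of 22 other family members, miR-741-3p included, 18 were higher and 4 lower in the TALEN line, and 20 higher and 2 lower in the CRISPR line. Their medians were 0.50 and 0.58, against 0.026 and 0.17 over all miRNAs tested. On that scale miR-871-3p changed by -0.29 and -0.15 and miR-470-5p by -0.0016 and -0.041. How many of all miRNAs were higher was not counted. Both lines share the 1 control library. Next to the members, miR-881-3p went from 1.43% in the control to 2.18% in the TALEN line and 2.38% in the CRISPR line, and miR-465a-5p, from the group of Mir465 hairpins on the other side, from 1.21% to 8.99% and 6.70%. miR-465a-5p was named after its values were seen, and the rest of its group moved less. miR-465b-5p went from 1.55% to 1.71% and 1.75%, miR-465c-5p from 1.93% to 2.41% and 2.42%, and the 3p form that the a, b and c hairpins share from 1.38% to 1.87% and 1.80%. The nearest hairpin on that side, Mir465d, gave 6, 11 and 4 reads of miR-465d-5p. Per miRNA reads miR-881-3p and miR-465a-5p were thus higher in both lines and miR-871-3p lower.

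Read ends of the abundant arms were close in the 3 lines, while some of those of miR-470-3p, on few reads, differed between the control and the TALEN line. Its 22 nt share, the reference length, was 76.8% in the control, 80.5% in the TALEN line and 80.0% in the CRISPR line. The 23 nt share of miR-871-3p was 80.7% in the control, 79.4% in the TALEN line and 81.9% in the CRISPR line, and that of miR-470-5p 89.4%, 89.6% and 89.6%. A-tailed miR-470-3p reads were 12.6% (8.34% to 18.1%), 7.03% (3.27% to 12.9%) and 9.23% (4.86% to 15.6%), which overlap. All non-templated ends of miR-470-3p, however, were 31.3% (24.9% to 38.3%) in the control, 13.3% (7.93% to 20.4%) in the TALEN line and 22.3% (15.5% to 30.4%) in the CRISPR line, so the control and TALEN intervals did not overlap. Its U-tailed reads were 8.59% in the control, 0 of 128 reads in the TALEN line, with an upper bound of 2.84%, and 6.92% in the CRISPR line. The start plus 2 form of miR-871-3p was 2.65%, 2.18% and 2.46%. The control was closer to the SSC library of the stage series than to any later stage in the A tails of miR-470-3p.

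Side by side, the SSC library and the control SSC line had 9.32% and 8.72% of miRNA reads in miR-871-3p, 4.42% and 5.36% in miR-470-5p, 0.370% and 0.534% in miR-871-5p, and 0.0494% and 0.0423% in miR-470-3p. Both are cultured wild-type SSC that differ in depth and in labelled background, though the growth protocol gives 1 origin for SSC.

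Across the 7 stages, on log2 of reads per 1000000 miRNA reads plus 1 and among 362 miRNAs, the patterns most like that of miR-871-3p were those of miR-471-3p (Pearson's r 0.99), miR-741-3p (0.97) and miR-365-3p (0.94). Those most like miR-470-5p were miR-465a-5p (0.99), miR-346-5p (0.98) and miR-700-3p (0.97). Each r rests on 7 points that share libraries, depth and denominator. miR-471-3p and miR-741-3p come from the same cluster, and miR-471-3p went from 0.103% of miRNA reads in pre-leptotene to 0.00503% in mature sperm. miR-871-3p and miR-470-5p had an r of 0.78 with each other, rank 30 from the side of miR-871-3p. The arms of 1 hairpin were less alike, with 0.34 for miR-871 and 0.34 for miR-470. miR-743a-5p, which shares the seed of miR-871-5p, took 0.0664% (mature sperm) to 0.133% (pachytene) of miRNA reads in the stage libraries, below miR-871-5p in each.

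The members' part of the family's reads was steadier than their level. miR-871 and miR-470 gave 31.4% of the reads of 38 family entries in SSC, 32.4% to 36.0% from pre-leptotene to round spermatids and 20.6% in mature sperm. From round spermatids to mature sperm 20 of the other 22 family members with 100 reads were lower and 2 higher. Their median was -0.97 per miRNA reads, against -0.19 over all 204 miRNAs tested, of which the number lower was not counted. miR-871-3p thus fell further than the family median, and miR-470-5p less.

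The same 18 nt were also read in libraries of other species. miR-871-3p had 31.4 to 85.5 reads per 1000000 of all reads in the 8 rabbit testis libraries, 6.36 in the pig library and 1.16 in the rat library, against 600.4 to 93358 in the mouse libraries.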

How the data were processed

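The deposited files hold raw counts: each distinct read sequence with the number of reads, not normalized, made by the authors from small RNA libraries of total RNA, per the labels' protocols. The submitters' processing notes name Bowtie and GRCm38 (mm10), without settings. Mature and hairpin sequences came from RefSeq (GRCm38.p6; 1679 mature names, joined to 1660 entries where the first 18 nt are shared), and RNAfold 2.7.2 folded the hairpins.

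Levels were counts per miRNA reads (all reads assigned by the same rule) and per all reads. With 1 library per group no test was run, and a difference was called at 4-fold between stages or 2-fold in both knockout lines, among miRNAs with at least 100 reads; a count of 0 was set to 3. Intervals are exact (Poisson or binomial, Clopper-Pearson), at 95%. TMM factors came from edgeR 4.0.16. Fold calls were checked on simulated counts and tail assignment on simulated tags. The tags had no sequencing errors, and those whose first added base equalled the template were left out, so that case was not checked. Named miRNAs were the members, miR-741, the 3 most similar patterns, seed sharers and adjacent hairpins, while miR-465a-5p among the Mir465 hairpins and the printed mismatches were chosen after their values were seen. The members and lists were chosen with earlier results of these data known. Replicates could not be compared. The labels give no run or batch, and the split by mismatch pattern was seen in the reads.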

Additional observations from a re-analysis of the deposited data

Results flagged for a closer look

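Reads that begin with the 18 nt of mouse miR-871-3p appeared in libraries outside the mouse comparisons. Per 1000000 of all reads, rabbit testis held 70.9 at day 10, 57.0 at day 30, 50.9 at day 60, 85.5 at day 70, 54.1 at day 80, 55.1 at day 90, 38.1 at day 110 and 31.4 at day 180. The same libraries held 77 to 153 reads of miR-470-5p, 9 to 21 of miR-871-5p and 0 to 3 of miR-470-3p, so miR-871-3p led there as in all mouse libraries but mature sperm. Pig testis held 83 such reads of miR-871-3p, 6.36 per 1000000, and 30 of miR-470-5p. Rat testis held 7 exact reads of miR-871-3p, 1.16 per 1000000, and 4656 reads with the single change T14A, which were 99.8% of its reads with 0 or 1 mismatch and 772 per 1000000 of all reads. In the mouse stage libraries T14A made up at most 0.0870% of such reads. There was 1 library per age or species and no library known to lack these miRNAs. Whether rabbit and pig carry them was not checked, and the source of these reads was not tested.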

How the results depend on the processing

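No paired analysis was possible because each group has 1 library, and leaving out a replicate was not possible for the same reason. Log2 changes are given in the order SSC to pre-leptotene, zygotene to pachytene, round spermatid to mature sperm, TALEN and CRISPR against control. For miR-871-3p, per miRNA reads 1.12, -0.20, -4.26, -0.29 and -0.15, all 5 kept their sign under every scaling. They were 1.99, -4.60, -1.54, -0.37 and -0.12 per all reads, 2.89, -0.59, -3.92, -0.41 and -0.34 with TMM factors, and 1.21, -0.30, -3.88, -0.36 and -0.14 when the full mature sequence was required. Per GENCODE hairpin reads, a scale chosen after seeing the data, they were 1.16, -0.59, -3.88, -0.27 and -0.12. For miR-470-5p, per miRNA reads 0.34, -0.91 and -0.27 over the stages, they were 1.21, -5.30 and 2.45 per all reads, 2.11, -1.30 and 0.070 with TMM factors, 0.11, -0.93 and 0.24 with the full sequence, and 0.39, -1.30 and 0.11 per hairpin reads, so its direction into mature sperm depended on the scaling. Its knockout changes were -0.090 (TALEN, all reads), -0.13 and -0.24 (TMM) and -0.053 (TALEN, full sequence), and without miR-741 in the denominator, also chosen after seeing the data, -0.27 and -0.31, against -0.56 and -0.42 for miR-871-3p. None reached 2-fold. The cause of these shifts was not tested beyond the denominators themselves.

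With the full sequence required, the 3p share of miR-871 was 99.3% in pre-leptotene and 68.7% in mature sperm, and that of miR-470 0.678% and 3.29%. Non-templated ends of miR-470-5p in pre-leptotene, 8.46%, were 8.36% with tags of 10 or more reads and 8.75% with tags up to 30 nt. Counts of 4-fold changes rose from 192 to 304, 1 to 36, 27 to 81, 56 to 100, 24 to 58 and 87 to 139 over the 6 steps, and of 2-fold changes in both lines from 28 to 60, when 10 reads sufficed. A lower cut only adds miRNAs, so these counts could not fall, and their share of the miRNAs then tested is not given. Depth limits miR-470-3p most, with 128 to 241 reads in pachytene, round spermatids and the 3 SSC lines.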
